A study of Mus musculus with 14 samples.

Results

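Forkhead transcription factors form the subject of this account. Members were the genes of the time-course table whose symbol is Fox, then a letter from a to s and a number, without *Foxm1*. This gave 44 of the 54332 genes in the table. The library values are TPM, the abundance of a gene's transcripts corrected for their length and scaled to a fixed total per library. RNA had been sequenced from epidermal stem cells (EpdSCs) in which MYC-tagged SOX9, a transcription factor of hair follicle stem cells, is switched on by doxycycline (DOX). There were 10 libraries, with 2 biological replicates at each of 5 timepoints. All mice were CD1 animals labelled male with the genotype K14rtTA; TRE-myc-Sox9, in which the *Krt14* promoter drives the DOX-dependent activator in basal epidermis, so the D0 cells carried the transgene too. D0 cells were taken at P21, and W1, W2 and W6 cells at P28, P35 and P63 after 1, 2 and 6 weeks of DOX. The W12 cells came from neonatal skin of the same genotype that had been grafted onto immunocompromised Nude mice, left to heal and then induced for 12 weeks. Grafting and 12 weeks of SOX9 can therefore not be told apart, nor can time on DOX and age up to W6. Every library was sorted for high CD49f and Ly6A without CD34 and without CD31, CD45, CD117 and CD140a.

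Forkhead proteins bind DNA through a winged-helix domain, and many act as pioneer factors that can engage closed chromatin. The family includes the FOXO proteins, which leave the nucleus when AKT phosphorylates them, the FOXP and FOXN proteins, several of them repressors, and tissue-restricted factors of endoderm, mesoderm and placodes. In skin, *Foxn1* is required for a normal hair coat and for keratinocyte differentiation, *Foxc1* and *Foxp1* for the quiescence of hair follicle stem cells, and *Foxq1* for the inner structure of the hair shaft.

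The transgene (MYC-SOX9) was listed at 89.6 and 45.6 TPM in the D0 libraries and at 606 to 3410 TPM in the other 8. Replicates correlated across 13110 genes with Pearson's r of 0.958 to 0.988. D0 replicate 2, labelled male, listed *Xist* at 4.61 and *Ddx3y* at 0.0278 TPM, so results are also given without it. At W12, *Xist* was at 5.51 and 3.50 TPM together with *Ddx3y* at 11.0 and 12.9 TPM, and the methods name female hosts. The 6 endothelial markers summed to 60.7 and 133 TPM at W12 and to at most 1.72 TPM elsewhere, none of them at 0 at W12. The 6 macrophage and Langerhans cell markers summed to 187 to 215 TPM at W12 against 5.47 to 41.2 TPM elsewhere, through *Cd74* and *H2-Ab1*, while *Cd207* and *Lyz2* stayed under 1 TPM in all libraries. Immediate-early and dissociation stress genes summed to 35700 to 58600 TPM at D0 against 7080 to 15500 TPM after DOX. The 8 basal keratinocyte markers were abundant in all libraries, at 58000 to 60500 TPM in sum at D0 and 35400 to 47000 TPM later. The 8 suprabasal markers summed to 1910 to 5790 TPM at D0 and 12000 to 13600 TPM at W6 and W12, mostly through *Krtdap* (3310 and 647 TPM at D0, 9990 to 11100 TPM at W6 and W12). At W12, 4 of the 8 were higher than at D0 and 1, *Lor*, was lower. The 6 melanocyte markers summed to 12.8 and 11.2 TPM at W12, to 1.27 and 4.93 TPM at D0 and to 11.8 TPM at most in between, mostly *Dct*, *Tyrp1* and *Pmel*. The part of any of these in the changes described here was not tested.

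Of the 44 members, 14 averaged 1 TPM or more across the 10 libraries and could be tested, 27 were above 0 in at least 1 library but averaged less, and *Foxi2*, *Foxl3* and *Foxr2* were listed at 0 in every library. The 14 were *Foxc1*, *Foxj2*, *Foxj3*, *Foxk1*, *Foxk2*, *Foxn1*, *Foxn2*, *Foxn3*, *Foxo1*, *Foxo3*, *Foxo6*, *Foxp1*, *Foxp4* and *Foxq1*. A gene was said to be higher or lower at an adjusted *P* under 0.05 in limma, fitted to all 13110 genes that averaged 1 TPM or more. Between 24 and 27 members were above 0 in each library from D0 to W2, 38 and 35 at W6, and 27 and 30 at W12. The whole table showed its highest numbers of genes above 0 at W6 as well, 28715 and 31239, against 22033 to 27551 in the other 8 libraries. Since TPM hold no read depth, detection of the low members cannot be compared between libraries at equal depth.

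*Foxn3*, a repressor first known as a checkpoint suppressor, was the most abundant member at D0, W1 and W2, and *Foxp1* at W6 and W12. The D0 order by mean TPM was *Foxn3* (151 ± 10.9, SD, n = 2), *Foxp1* (32.2 ± 11.4), *Foxj2* (21.7) and *Foxo1* (21.5). The *Foxj2* and *Foxo1* libraries overlapped each other, those of *Foxp1* and those of *Foxj3* at 12.5 and 22.6 TPM, so below *Foxn3* the order by mean was within the spread of the replicates. By W12 the order was *Foxp1* (53.8 ± 1.499), *Foxn3* (47.4 ± 1.28), *Foxq1* (17.2) and *Foxn2* (11.8). The *Foxn2* libraries, at 15.4 and 8.18 TPM, overlapped those of *Foxc1* and *Foxk2*, which followed at means of 8.75 and 8.70 TPM. The ratio of *Foxp1* to *Foxn3* was 0.168 and 0.254 at D0, 0.213 and 0.221 at W1 and 0.31 and 0.345 at W2. It was 1.23 and 1.07 at W6 and 1.09 and 1.18 at W12, so that the 4 late libraries lay above the 6 earlier ones. All 44 members together summed to 283 and 351 TPM at D0, 418 and 459 at W1, and 433 and 416 at W2. The sum was 263 and 253 TPM at W6 and 177 and 184 TPM at W12. *Foxn3* alone made up 45.1% to 54.1% of it in the 6 libraries up to W2 and 18.2% to 27.6% in the other 4. In these bulk libraries, fewer cells of a type and less RNA per cell cannot be told apart.

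**Figure D1:**
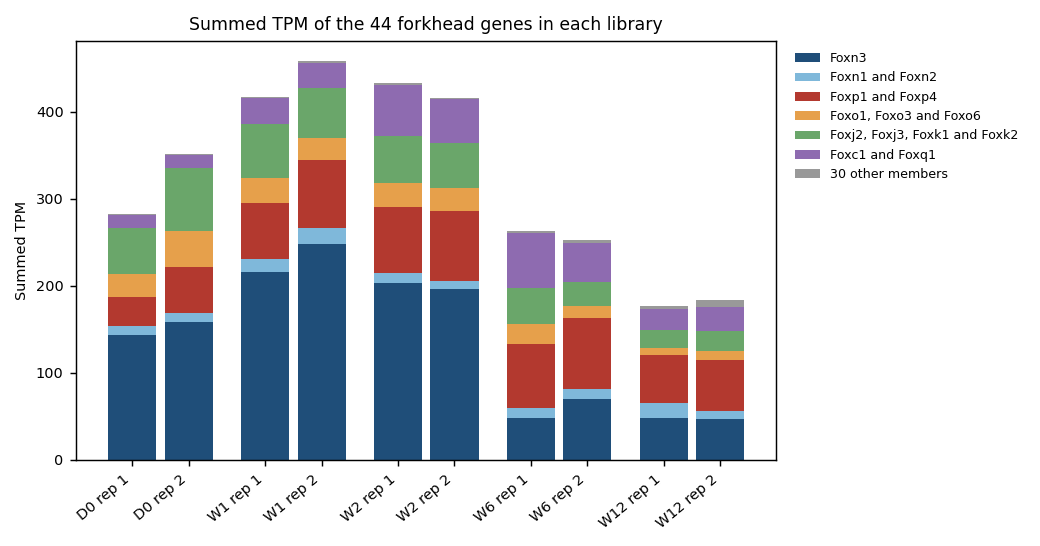
Summed TPM of the 44 forkhead genes in each library (vertical axis, linear from 0), with 1 bar per library and coloured segments for the members named in the key. The bars rise from 283 and 351 TPM at D0 to 459 TPM in W1 replicate 2 and end at 177 and 184 TPM at W12, and the dark *Foxn3* segment shrinks between W2 and W6.

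RefSeq promoters of 300 bases (build GRCm38.p6), which end shortly after a listed transcription start, are shown for *Foxc1* and *Foxp1*, members that rose, and for *Foxn3*, the most abundant member, which fell. Of the 44 members, 28 had a promoter in the table, as did 10 of the 14 tested, with 12 promoters among them. Capitals mark the letters ACAAAG or ACAATG, SOX-type core motifs, or TGTTTAC, a forkhead core motif, searched on both strands. No match overlapped another in the sequences shown. *Foxc1* (chr13:31806396-31806695, + strand) holds none of them. *Foxn3* (chr12:99450025-99450324, − strand, an internal start of the gene) holds ACAAAG read on the opposite strand. The most 5′ of 3 listed *Foxp1* starts (chr6:99520944-99521243, − strand) holds ACAAAG on each strand.
Foxc1: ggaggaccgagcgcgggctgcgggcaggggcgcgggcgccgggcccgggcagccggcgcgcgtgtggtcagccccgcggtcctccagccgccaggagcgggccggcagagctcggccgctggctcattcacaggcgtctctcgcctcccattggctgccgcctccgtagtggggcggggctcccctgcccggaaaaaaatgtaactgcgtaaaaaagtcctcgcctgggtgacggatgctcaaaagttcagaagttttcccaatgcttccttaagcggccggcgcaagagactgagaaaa
Foxn3: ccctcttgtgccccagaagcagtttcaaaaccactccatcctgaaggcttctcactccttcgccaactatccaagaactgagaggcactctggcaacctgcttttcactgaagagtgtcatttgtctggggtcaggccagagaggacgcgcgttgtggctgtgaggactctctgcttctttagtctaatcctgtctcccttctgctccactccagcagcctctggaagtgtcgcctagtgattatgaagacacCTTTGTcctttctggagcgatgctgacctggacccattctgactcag
Foxp1: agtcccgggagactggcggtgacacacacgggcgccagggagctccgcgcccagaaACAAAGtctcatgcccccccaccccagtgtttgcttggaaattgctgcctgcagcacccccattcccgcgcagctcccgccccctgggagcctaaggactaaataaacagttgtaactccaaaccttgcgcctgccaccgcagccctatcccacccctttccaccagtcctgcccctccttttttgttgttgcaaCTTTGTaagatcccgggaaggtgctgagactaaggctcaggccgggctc
The SOX-type letters occurred in 5 of the 12 promoters of tested members, those of *Foxn3*, *Foxo3* and *Foxp1*, and in 28.6% of all 32851 promoters of this length. The forkhead letters occurred in 0 of the 12 and in 3.65% of all promoters. A match describes letters in this window and is no evidence of binding.

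Members higher than at D0 made up a share near that of all genes at W1, W6 and W12, while members lower than at D0 made up 35.7% of the 14 at W6 and 64.3% at W12. At W1, 1 of the 14 was higher and 0 were lower, where 5.79% of all tested genes were higher and 4.1% lower. At W2, 3 were higher and 0 lower, against 9.06% and 6.64% of all genes. At W6, 3 were higher and 5 lower, against 18.3% and 14.1%. At W12, 3 were higher and 9 lower, against 17.9% and 25.1%. The 3 that were higher at W2, W6 and W12 were *Foxc1*, *Foxp1* and *Foxq1*. These comparisons share the D0 libraries. The median log2 change of the 14 members was 0.23, 0.20, −0.08 and −1.19 in the order of these timepoints, beside 0.09, 0.06, 0.08 and −0.08 for all tested genes. All log2 changes are of TPM + 1, a scale on which weakly expressed genes appear to change less than they do. Without D0 replicate 2 the numbers higher and lower were 2 and 0 at W1, 3 and 0 at W2, 3 and 2 at W6, and 2 and 7 at W12, where 4.45% and 3.41%, 6.35% and 4.51%, 10% and 7.96%, and 11.6% and 16.9% of all genes were. With each library left out in turn, the W1 change of *Foxc1* was 1.56 to 2.14. In some of these fits the number of members called at W1 or W6 changed, as did the share of all genes called. Without W12 replicate 1, 0 were higher and 6 lower at W12, against 11.3% and 14.4% of all genes.

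From D0 to W1, 1 member was higher, *Foxc1*. Between successive timepoints from W1 on, all 8 calls lay in the last 2 steps and were falls. *Foxj2*, *Foxj3* and *Foxk2*, lower at W12 than at D0, passed in no single step. From W1 to W2, 0 of the 14 passed the limma test in either direction, where 0.0458% of all genes were higher and 0.0686% lower, and 3 members and 1900 genes had an unadjusted *P* under 0.05. From W2 to W6, 0 were higher and 3 lower, namely *Foxn3*, *Foxo1* and *Foxk1*, against 7.99% and 8.31% of all genes. From W6 to W12, 0 were higher and 5 lower, namely *Foxc1*, *Foxn1*, *Foxo6*, *Foxp4* and *Foxq1*, against 6.66% and 13.5%. In these steps from W1 on, the median change of the members was −0.09, −0.20 and −0.62, and that of all genes −0.03, 0.01 and −0.16. From W6 to W12, scaling by median ratios moved the median of all genes to −0.01 and left 3 members lower, where 7.32% of all genes were lower under that scaling. With each library left out in turn, the W2 to W6 change was −2.04 to −1.5 for *Foxn3*. It was −1.16 to −0.97 for *Foxo1* and −2.28 to −1.52 for *Foxk1*. From W6 to W12 the change was −1.86 to −1.04 for *Foxc1*, −1.46 to −1.16 for *Foxn1* and −2.57 to −1.12 for *Foxo6*. It was −1.87 to −0.77 for *Foxp4* and −0.7 to −0.51 for *Foxq1*. Fewer members and a smaller share of all genes were called in several of these fits. Without W12 replicate 2, *Foxn2* changed by 1.05 from W6 to W12. Over all timepoints, the limma F test called 11 of the 14 members and 57.5% of all genes. *Foxk2*, *Foxn2* and *Foxo3* did not pass it (adjusted *P* of 0.051, 0.0605 and 0.6).

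**Figure D2:**
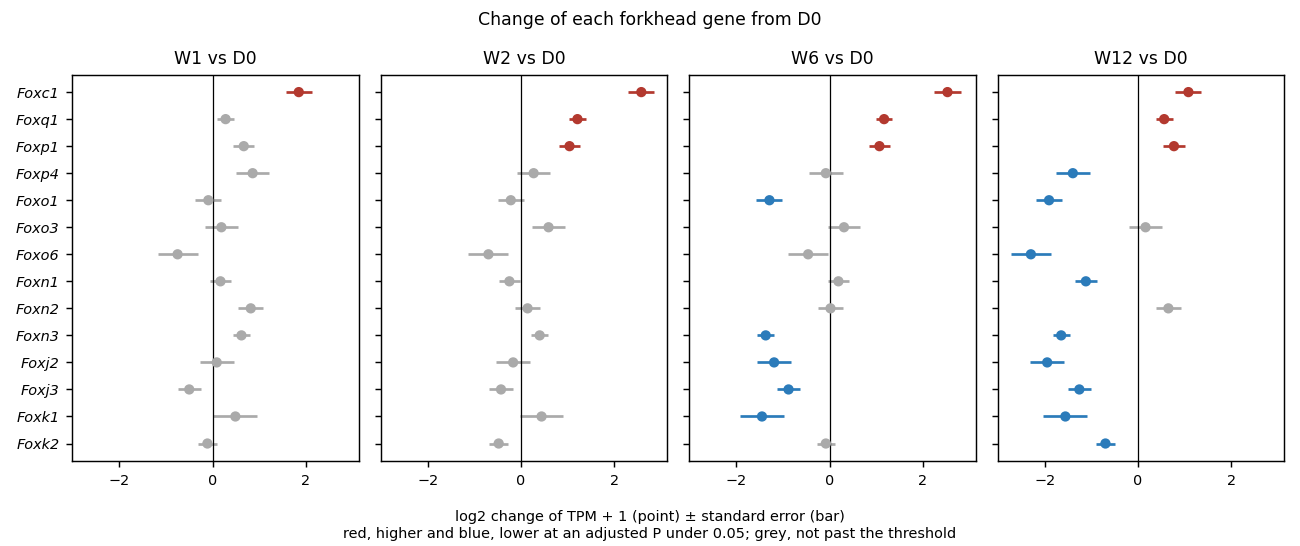
log2 change of TPM + 1 from D0 (horizontal axis) with its standard error for the 14 tested forkhead genes at W1, W2, W6 and W12, coloured by the limma call. *Foxc1* is the only coloured point at W1, and 9 points lie on the blue, lower side at W12.

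Members were also counted by libraries that did not overlap, with the split of timepoints chosen after the values were seen. Both D0 libraries lay below the other 8 for 3 of 14 members, *Foxc1*, *Foxp1* and *Foxq1*, as for 9.53% of all tested genes. Both W12 libraries lay below the other 8 for 7 members, *Foxj2*, *Foxj3*, *Foxk2*, *Foxn1*, *Foxo1*, *Foxo6* and *Foxp4*, as for 22.6% of all genes. All 4 libraries of W6 and W12 lay below all 6 earlier libraries for 5 members, *Foxj2*, *Foxj3*, *Foxk1*, *Foxn3* and *Foxo1*, as for 12.2% of all genes. The reverse held for 0 members and 11.9% of all genes. The tested members have long transcripts. For 13 of the 14 the longest annotated transcript exceeded the median of the tested genes, 3043 bases, and their own median was 5184 bases. Across 13099 genes, transcript length and the log2 change had a Spearman's rho of −0.245 at W6 and −0.316 at W12 against D0. Genes are not independent replicates. With a correction for length and GC content, 4 members were higher and 5 lower at W12, and 3 higher and 4 lower at W6. In the corrected fit 20.6% of all genes were higher and 17.5% lower at W12, and 17.7% and 16.5% at W6. The member added at W12 was *Foxn2* (log2 change 0.74, adjusted *P* = 0.04997), just under the threshold, and those lost were *Foxk1*, *Foxk2*, *Foxn1* and *Foxp4* at W12 and *Foxk1* at W6.

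*Foxc1* had the largest change of the 14 members at W1, W2 and W6 and was among the 3 that rose. It stood at 4.64 and 2.76 TPM at D0, at 15.1 and 16.2 at W1 and at 26.6 and 26.5 at W2. It was at 34.4 and 19.1 TPM at W6 and at 8.25 and 9.25 TPM at W12. Every library after DOX lay above both D0 libraries, and both W12 libraries lay below the 6 of W1 to W6. The log2 change from D0 was 1.85 ± 0.28 (SE) at W1 (adjusted *P* = 0.00501) and 2.58 at W2 (adjusted *P* = 0.000815). It was 2.53 at W6 (adjusted *P* = 0.000508) and 1.08 at W12 (adjusted *P* = 0.0152). From W6 to W12 it fell by 1.45 on the log2 scale (adjusted *P* = 0.0104). The W2 and W6 calls held under every alternative, with adjusted *P* of at most 0.0191 and 0.0256. The W1 call was lost without W1 replicate 2 (adjusted *P* = 0.0503) and with only the 4 libraries compared (0.0522, the highest over the alternatives, the lowest being 0.00199). The W12 call was lost without D0 replicate 2 (0.0965), W12 replicate 1 (0.061) or W12 replicate 2 (0.0856) and in the fit of all genes above 0 (0.056). With the length and GC correction the W12 change was 1.85 (0.00178, the lowest over the alternatives). The fall from W6 was lost without W12 replicate 1 (0.0832), with only the 4 libraries compared (0.0589) and with the length and GC correction, under which the change was −0.94 (0.0652). Its range was 0.0035 to 0.0832.

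*Foxq1* lies on chromosome 13 (31556134 to 31560976, GENCODE M21 on GRCm38), with *Foxf2* 64.8 kb further on (31625816 to 31631403) and *Foxc1* another 175.2 kb beyond that (31806633 to 31812476), all 3 on the + strand. *Foxq1* stood at 10.4 and 12.3 TPM at D0, 14.8 and 13.1 at W1, and 31.2 and 24.1 at W2. It was at 28.7 and 24.9 TPM at W6 and 16.2 and 18.3 TPM at W12. Its W1 libraries lay just above those of D0, and the 4 libraries of W2 and W6 lay above the other 6. The log2 change from D0 was 0.28 at W1 (adjusted *P* = 0.389) and 1.21 ± 0.18 at W2 (adjusted *P* = 0.00364). It was 1.17 at W6 (adjusted *P* = 0.00236, lost with only the 4 libraries compared at 0.0523) and 0.56 at W12 (adjusted *P* = 0.0362). With the length and GC correction the W12 change was 1.31 (adjusted *P* = 0.000436). The W12 call was lost with only the 4 libraries compared (0.0893), in the fit of all genes above 0 (0.0725), and without D0 replicate 1 (0.119), W1 replicate 1 (0.0543), W1 replicate 2 (0.054), W12 replicate 1 (0.0832) or W12 replicate 2 (0.17). Its range was 0.000436 to 0.17. The fall from W6 to W12 by 0.61 (adjusted *P* = 0.0491) was lost without any library other than the D0 pair, with adjusted *P* of 0.0566 to 0.241, and under 9 other settings. With the length and GC correction it was −0.09 (0.745). The third gene of this cluster, *Foxf2*, a factor of mesenchyme in gut and palate, was listed at 0 in both D0 libraries. Its levels were 0.0995 and 0.115 TPM at W1, 0.0353 and 0.186 at W2, 0.363 and 0.413 at W6, and 0.457 and 0.648 at W12. Thus all 3 neighbours were lowest at D0, and *Foxf2* alone among them was highest at W12.

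**Figure D3:**
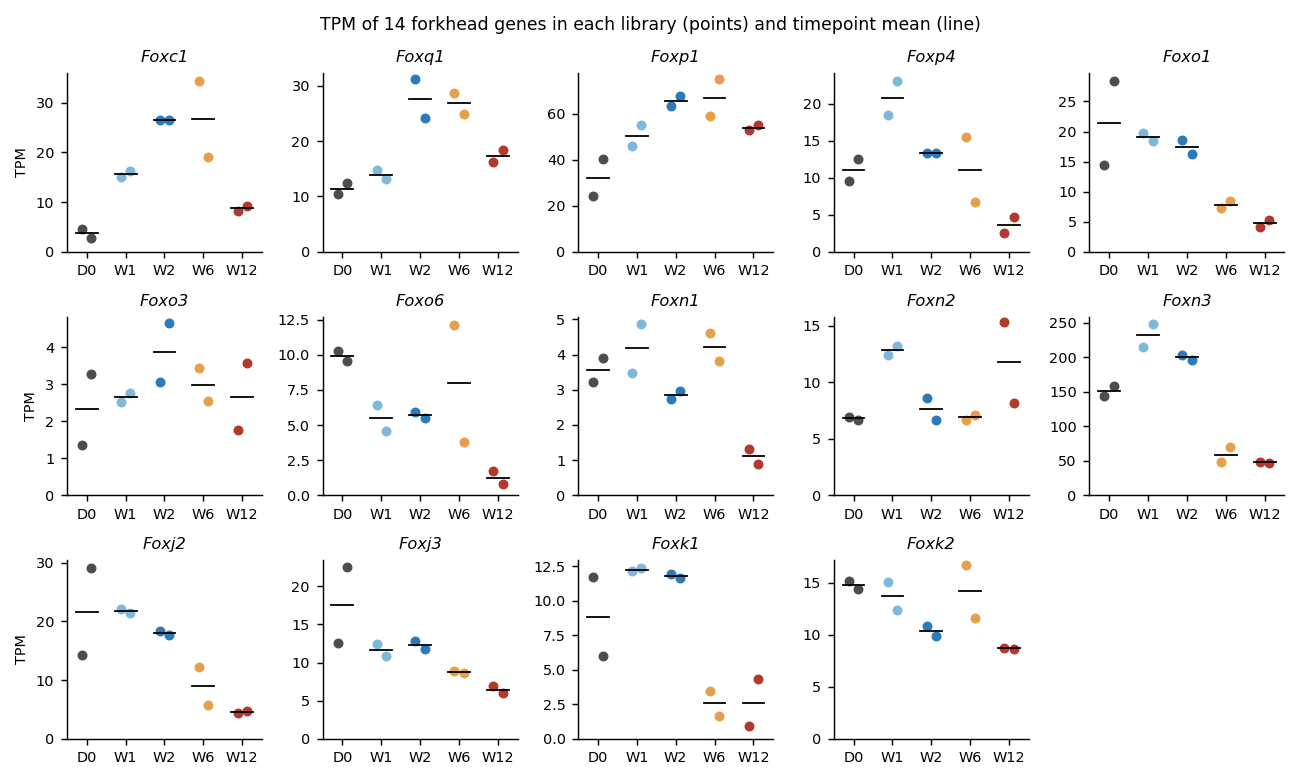
TPM (vertical axes, linear from 0, a scale of its own for each gene) of the 14 tested forkhead genes in each library (points, 2 per timepoint) with the timepoint mean (line). *Foxc1* goes from 4.64 and 2.76 TPM at D0 to 26.6 and 26.5 at W2, and *Foxn3* from 203 and 196 at W2 to 47.8 and 69.8 at W6.

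Of the FOXP genes, *Foxp1* rose and *Foxp4* fell. *Foxp1* stood at 24.1 and 40.2 TPM at D0, 45.9 and 55.0 at W1, and 63.1 and 67.5 at W2. It was at 58.8 and 75.0 TPM at W6 and 52.7 and 54.8 TPM at W12. All 8 libraries after DOX lay above both D0 libraries, which themselves differed widely. The log2 change was 0.67 at W1 (adjusted *P* = 0.113) and 1.04 ± 0.23 at W2 (adjusted *P* = 0.0195). It was 1.07 at W6 (adjusted *P* = 0.01) and 0.77 at W12 (adjusted *P* = 0.0276). The W1 change was 1.03 without D0 replicate 2 and 0.31 at its lowest over the alternatives. Without D0 replicate 1 the W12 change was 0.41. The W2 call was lost without W2 replicate 1 (0.0908) or W2 replicate 2 (0.126), with a range of 0.0054 to 0.126, and the W6 call without W6 replicate 2 (0.0526, range 0.00345 to 0.0967). With only the 4 libraries compared, the W2, W6 and W12 calls were lost (0.1004, 0.0967 and 0.0876), and in the fit of all genes above 0 those at W2 and W12 were (0.0886 and 0.0913). The W12 call was lost without D0 replicate 1 (0.112), W12 replicate 1 (0.0969) or W12 replicate 2 (0.114), with a range of 0.00526 to 0.114.

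*Foxp4*, a relative that can pair with FOXP1, stood at 9.50 and 12.5 TPM at D0, 18.4 and 23.1 at W1 and 13.3 and 13.3 at W2. It was at 15.48 and 6.67 TPM at W6 and 2.59 and 4.64 TPM at W12. The W12 libraries were the lowest and the W1 libraries the highest, while the W6 replicates lay far apart. The log2 change was 0.86 ± 0.36 at W1 (adjusted *P* = 0.176) and −1.40 ± 0.36 at W12 (adjusted *P* = 0.0139). The W12 call was lost without D0 replicate 2 (0.0826) or W12 replicate 1 (0.105), in the fit of all genes above 0 (0.0585) and with the length and GC correction, under which the change was −0.70 (0.0688). Its range was 0.00371 to 0.105. The change from W6 to W12, −1.32 (adjusted *P* = 0.0344), was lost without 7 of the 10 libraries (0.055 to 0.224), all but the D0 pair and W6 replicate 2, with a range of 0.0068 to 0.224. It was also lost under 5 other settings, among them the length and GC correction, where it was −0.73 (0.112). Without W6 replicate 1 the change was −0.77. *Foxp2*, expressed in brain and lung, reached at most 0.560 TPM, and *Foxp3*, which marks regulatory T cells, at most 0.348 TPM, in D0 replicate 1. The 7 T cell markers summed to at most 1.95 TPM in any library. The FOXP sum of the library values was 34.0 and 52.8 TPM at D0, 74.5 and 82.2 at W6, and 55.4 and 59.5 at W12.

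*Foxn3* fell between W2 and W6. Its libraries were at 143 and 159 TPM at D0, 215 and 248 at W1, and 203 and 196 at W2. They were at 47.8 and 69.8 TPM at W6 and 48.3 and 46.5 TPM at W12. The lowest of the 6 early libraries was at 143 TPM and the highest of the 4 late ones at 69.8 TPM. The log2 change from W2 to W6 was −1.77 ± 0.18 (adjusted *P* = 0.00166). Against D0 it was 0.62 at W1 (adjusted *P* = 0.07) and 0.40 at W2 (adjusted *P* = 0.169). The change was −1.37 at W6 (adjusted *P* = 0.0011) and −1.65 at W12 (adjusted *P* = 0.000263). The 3 calls held under every alternative, with adjusted *P* of at most 0.0357, 0.0295 and 0.00417 for W6 against D0, W6 against W2 and W12 against D0. *Foxn2*, its closest relative, stood at 6.97 and 6.64 TPM at D0, 12.5 and 13.2 at W1, 8.61 and 6.64 at W2, 6.68 and 7.14 at W6, and 15.4 and 8.18 at W12. Its W1 libraries and W12 replicate 1 were the highest. *Foxn2* passed no comparison in the main fit, with a log2 change of 0.82 ± 0.27 at W1 (adjusted *P* = 0.0916). At W12 the change was 0.65 (adjusted *P* = 0.0773), and 0.23 to 1.07 over the alternatives. It passed at W12 with quantile normalization (0.8, adjusted *P* = 0.04998) and with the length and GC correction. In fits without 1 of the W12 libraries it also passed at W1, at W12 or from W6.

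*Foxn1*, whose loss causes the nude phenotype, stood at 3.23 and 3.92 TPM at D0, 3.47 and 4.87 at W1, and 2.73 and 2.96 at W2. It was at 4.60 and 3.82 TPM at W6 and 1.32 and 0.883 TPM at W12. The first 8 libraries lay between 2.73 and 4.87 TPM, and both W12 libraries lay below them. The log2 change at W12 was −1.12 ± 0.23 from D0 (adjusted *P* = 0.005) and −1.31 from W6 (adjusted *P* = 0.00663). Both calls held with each library left out in turn, with adjusted *P* of at most 0.0382 and 0.0442. The first was lost with the length and GC correction, where the change was −0.60 (0.0591, range over the alternatives 0.00314 to 0.0591) and the second with only the 4 libraries compared (0.0507, range 0.00461 to 0.0507). The W12 grafts had grown on Nude hosts, which lack functional *Foxn1*. *Xist* at W12 is given above, and the share of host cells in these libraries was not measured.

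Among the FOXO genes, *Foxo1* fell from W6 and *Foxo6* at W12, and *Foxo3* passed no test. *Foxo1* stood at 14.5 and 28.5 TPM at D0, 19.7 and 18.4 at W1, and 18.6 and 16.3 at W2. It was at 7.21 and 8.36 TPM at W6 and 4.12 and 5.27 TPM at W12. The 4 late libraries lay below all earlier ones, and D0 replicate 2 was the highest. The log2 change was −1.29 ± 0.28 at W6 (adjusted *P* = 0.0102), −1.91 at W12 (adjusted *P* = 0.00113) and −1.07 from W2 to W6 (adjusted *P* = 0.038). Without D0 replicate 2 it was −0.82 at W6 (adjusted *P* = 0.037) and −1.45 at W12 (adjusted *P* = 0.00315). The W12 call held under every alternative (at most 0.0179), and the W6 call under all but the fit of only the 4 libraries compared (0.0993, range 0.000933 to 0.0993). The call from W2 to W6 was lost without any library outside D0 (0.0635 to 0.198) and in the fit of all genes above 0 (0.117, range over all alternatives 0.00707 to 0.198).

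*Foxo6*, known mainly from brain and liver, stood at 10.3 and 9.53 TPM at D0, 6.46 and 4.60 at W1, and 5.95 and 5.50 at W2. It was at 12.1 and 3.80 TPM at W6 and 1.73 and 0.799 TPM at W12. The W12 libraries were the lowest, and the W6 replicates lay on either side of those of W1 and W2. The log2 change at W12 was −2.30 ± 0.43 from D0 (adjusted *P* = 0.00324), which held under every alternative (at most 0.0319). From W6 it was −1.84 (adjusted *P* = 0.0194), lost without W6 replicate 1 (0.0539, change −1.12), W12 replicate 1 (0.066) or W12 replicate 2 (0.114), with a range of 0.0019 to 0.114. It was also lost with only the 4 libraries compared (0.0951), in the fit of all genes above 0 (0.0685) and with the length and GC correction, where it was −1.27 (0.0652). Without W6 replicate 2 it was −2.57. With a pseudocount of 0.1 the change at W12 was −2.96 from D0 and −2.43 from W6. *Foxo3* lay between 1.36 and 4.65 TPM in all libraries, where each later timepoint overlapped D0, and *Foxo4* between 0.2004 and 0.576 TPM. The ratio of *Foxo1* to *Foxo3* was 10.6 and 8.67 at D0, 6.07 and 3.50 at W2, and 2.35 and 1.48 at W12. The FOXO sum was 26.4 and 41.5 TPM at D0 and 7.86 and 9.94 TPM at W12.

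Regulators and targets of the FOXO proteins are given for context, from lists chosen with earlier results of these data known. Of 18 genes of the PI3K and AKT pathway and other FOXO regulators, 17 were tested. Of these, 1 was higher and 1 lower than at D0 at W1, 2 and 1 at W2, 3 and 3 at W6, and 1 and 7 at W12, where the median log2 change was −0.32. Among all tested genes, 5.79% were higher and 4.1% lower at W1, 9.06% and 6.64% at W2, 18.3% and 14.1% at W6, and 17.9% and 25.1% at W12, where the median was −0.08. *Sgk1*, a kinase that phosphorylates FOXO proteins, rose at W12 by a log2 change of 1.59 ± 0.19 (adjusted *P* = 0.000378) and went from 71.0 and 70.1 TPM at D0 to 335 and 316 at W2 and 180 and 258 at W12. Genes that fell at W12 were *Pik3cb* (−1.65), a catalytic and *Pik3r2* (−1.50), a regulatory PI3K subunit, and the kinase *Akt2* (−1.31), with adjusted *P* of 0.00153, 0.00108 and 0.000665. Without D0 replicate 2 or without W12 replicate 2, fewer regulators and a smaller share of all genes were lower at W12. Of 20 FOXO target genes, 17 were tested, and 2 were higher and 3 lower at W1, 5 and 3 at W2, 2 and 7 at W6, and 1 and 8 at W12, with a median of −0.41 at W12, to be read against the same shares and median of all genes. The largest falls were in *Txnip* (−3.20), which restrains glucose uptake, *Fbxo32* (−3.07), an atrophy ubiquitin ligase, *Bcl6* (−2.53), a repressor, and *Irs2* (−2.18), an insulin receptor adaptor, with adjusted *P* of 0.000625, 0.00154, 0.000678 and 0.00181. Without D0 replicate 2 the target counts were unchanged at W12, while the shares of all genes higher and lower were smaller. The calls of the 8 genes named held under every alternative, but the size of the change moved. With the length and GC correction it was −0.66 for *Akt2*, −0.90 for *Pik3r2* and −1.37 for *Irs2*. Leaving out D0 replicate 1 gave −3.77 for *Fbxo32* and −3.12 for *Bcl6*, and leaving out D0 replicate 2 gave −2.37 for *Fbxo32*.

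The broadly expressed genes *Foxj2*, *Foxj3*, *Foxk1* and *Foxk2* were all lower at W12. *Foxj2*, a transcriptional activator, stood at 14.2 and 29.1 TPM at D0, 22.1 and 21.4 at W1, and 18.4 and 17.7 at W2. It was at 12.2 and 5.70 TPM at W6 and 4.31 and 4.79 TPM at W12. The late libraries lay below the early ones, although W6 replicate 1 came close to D0 replicate 1. The log2 change was −1.95 ± 0.36 at W12 (adjusted *P* = 0.00337), which held under every alternative (at most 0.0299) and was −1.25 with the length and GC correction. At W6 it was −1.19 (adjusted *P* = 0.0364), lost without any library except D0 replicate 1 and W6 replicate 1 (0.0578 to 0.225, highest without D0 replicate 2), with a range of 0.00852 to 0.225. It was also lost with only the 4 libraries compared (0.183) and in the fit of all genes above 0 (0.124). The W6 change was −0.69 without D0 replicate 2 and −0.7 without W6 replicate 2. *Foxj3* stood at 12.5 and 22.6 TPM at D0, between 10.8 and 12.8 TPM at W1 and W2, at 8.85 and 8.63 at W6, and at 6.87 and 6.05 at W12. D0 replicate 2 was again the highest. Its log2 change was −1.26 ± 0.25 at W12 (adjusted *P* = 0.00453, at most 0.0369 under the alternatives). At W6 it was −0.88 (adjusted *P* = 0.0287), lost without any library other than D0 replicate 1 and the W1 pair (0.05004 to 0.139, highest without D0 replicate 2), with only the 4 libraries compared (0.176) and in the fit of all genes above 0 (0.0847). Without D0 replicate 2 the W6 change was −0.47.

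The FOXK genes encode repressors of autophagy genes that act with mTOR signalling. *Foxk1* stood at 11.7 and 5.99 TPM at D0, 12.2 and 12.4 at W1, and 11.97 and 11.6 at W2. It was at 3.48 and 1.64 TPM at W6 and 0.933 and 4.32 TPM at W12. All 4 late libraries lay below the early ones, with the D0 and W12 replicates far apart. The log2 change was −1.45 ± 0.47 at W6 (adjusted *P* = 0.0454), −1.56 at W12 (adjusted *P* = 0.0277) and −1.90 from W2 to W6 (adjusted *P* = 0.0328). The W6 call was lost without 7 of the 10 libraries, all but W6 replicate 1 and the W12 pair (0.056 to 0.201), and under 7 other settings, with a range of 0.0224 to 0.201. The W12 change was −0.83 without W12 replicate 1 and −2.29 without W12 replicate 2. Its call was lost without D0 replicate 1 (0.136) or W12 replicate 1 (0.187), with only the 4 libraries compared (0.0896), in the fit of all genes above 0 (0.108) and with the length and GC correction, under which the change was −0.75 (0.241). Its lowest value was 0.00979. The call from W2 to W6 was lost without W1 replicate 1 (0.0566), W1 replicate 2 (0.0565), W2 replicate 1 (0.161), W2 replicate 2 (0.136) or W6 replicate 2 (0.139), with a range of 0.024 to 0.161. It was also lost in the fit of all genes above 0 (0.117) and with the length and GC correction (0.0618). *Foxk2* went from 15.2 and 14.4 TPM at D0 to 8.76 and 8.64 at W12, with values of 9.90 to 16.7 TPM at W1, W2 and W6. The W12 libraries were its lowest, while the others overlapped between D0, W1 and W6. Its log2 change at W12 was −0.70 ± 0.20 (adjusted *P* = 0.0213), lost without D0 replicate 1 (0.0594), D0 replicate 2 (0.0606), W12 replicate 1 (0.0873) or W12 replicate 2 (0.0912) and with quantile normalization (0.0834) or the length and GC correction, where the change was −0.13 (0.632). Its lowest value was 0.00845.

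The 27 members under the mean of 1 TPM included factors of other tissues, and 5 of them exceeded 0.6 TPM in at least 1 library. *Foxi3*, a factor of the ectodermal and hair placode, stood at 0.0693 and 0.156 TPM at D0, 0.763 and 1.07 at W1, and 1.65 and 0.719 at W2. It was at 0.376 and 0.482 TPM at W6 and 0.216 and 0.360 TPM at W12. All libraries after DOX lay above those of D0, and W1 and W2 above the rest. In a fit of all 38965 genes above 0 in any library, which took in 41 members, its log2 change at W2 was 0.94 ± 0.26 (adjusted *P* = 0.139), not past the threshold.

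The other 4 were highest at W12, the grafted timepoint. *Foxa1*, a pioneer factor of endoderm and gland epithelia, was at 0.632 and 3.60 TPM at W12 and at most 0.0944 TPM elsewhere (log2 change from D0 1.43 ± 0.42, adjusted *P* = 0.072). *Foxc2*, required for lymphatic vessels, was at 0.667 and 1.62 TPM at W12 and at most 0.160 TPM elsewhere. In the fit of all genes its log2 change at W12 was 0.98 ± 0.20 from D0 (adjusted *P* = 0.0206) and 1.04 from W6 (adjusted *P* = 0.0306). *Foxe1*, a thyroid and hair follicle factor, was at 1.08 and 0.532 TPM at W12, 0.366 and 0.754 at W6, and at most 0.229 TPM before (adjusted *P* = 0.114 at W12 against D0). *Foxf2*, whose levels are given above, passed at W6 (adjusted *P* = 0.0424) and W12 (adjusted *P* = 0.0106) in the same fit. *Foxa1*, *Foxc2* and *Foxf2* were higher in W12 replicate 2, where the endothelial markers summed to 133 TPM, than in W12 replicate 1, where they summed to 60.7 TPM. *Foxe1* was higher in W12 replicate 1. The 8 fibroblast markers summed to 13.8 and 28.1 TPM at W12 and to 1.72 and 52.2 TPM at W6. Nearly all of this was *Dcn*, at 13.2 and 27.2 TPM at W12 and 51.2 TPM in W6 replicate 2, and at W12 none of the other 7 exceeded 0.498 TPM. The part of such cells in these values was not tested.

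**Figure D4:**
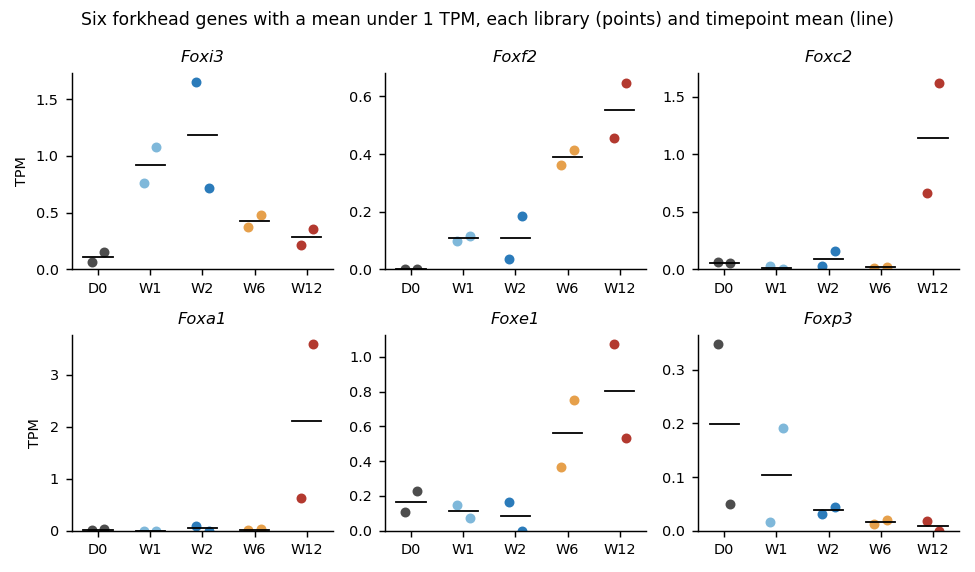
TPM (vertical axes, linear from 0, a scale of its own for each gene) of 6 forkhead genes with a mean under 1 TPM in each library (points, 2 per timepoint) and the timepoint mean (line). *Foxi3* is highest at W1 and W2, at 0.719 to 1.65 TPM, and *Foxc2* and *Foxa1* leave the baseline at W12.

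The remaining low members stayed under 0.6 TPM in every library. *Foxj1*, the master factor of motile cilia, reached 0.129 TPM. The 5 multiciliated cell markers summed to 1.52 to 1.72 TPM at D0 and 4.64 to 6.09 TPM at W2. The sum was 15.1 to 17.3 TPM at W6 and 13.1 to 17.3 TPM at W12, mostly through *Rsph1*. *Foxd3*, a neural crest factor, reached 0.152 TPM. *Foxf1* and *Foxl1*, which lie beside *Foxc2* on chromosome 8 (28026 and 9044 bases away), reached 0.0895 and 0.0890 TPM, and neither exceeded 0.0435 TPM at W12. *Foxa2*, *Foxb1*, *Foxe3* and *Foxs1* were above 0 in 1 library each, at up to 0.0752 TPM. *Foxn4*, a factor of retina and spinal cord, was above 0 at W6 only, at 0.0508 and 0.227 TPM. The highest value of *Foxa3* was 0.417 TPM and that of *Foxh1* 0.309 TPM, both in W6 replicate 2. *Foxb2*, *Foxd1*, *Foxd2*, *Foxd4*, *Foxi1*, *Foxl2* and *Foxr1* reached between 0.0209 and 0.158 TPM.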

How the data were processed

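RNA of FACS-purified EpdSCs was made into low-input libraries and sequenced from both ends. The authors trimmed reads, quantified transcripts with Salmon 1.4.0 against a GENCODE index of GRCm38 with the transgene added, and summed them to genes with Tximport 1.12.3, and deposited TPM. TPM do not record read depth, and the precision it would give is unknown for each library. Whether strand was used is not given in the sources used here. A deposited table of the 4 placode libraries holds the authors' own comparison (fold changes and p-values) and was not used.

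log2(TPM + 1) of the 13110 genes averaging 1 TPM or more was fitted with limma 3.58.1 in R 4.3.3, with timepoint means over all 10 libraries, eBayes with a trend, and Benjamini-Hochberg adjustment over all genes, where the study used a count test that TPM do not permit. Groups and replicate numbers came from the sample labels. The members and lists were chosen with earlier results of these data known. Members are accounted for, except that not every low member is reported here. Those averaging 1 TPM or more are given with values per library, and list genes by the 4 largest changes at W12 past the threshold. Gene positions and transcript lengths are those of GENCODE M21. The script was tested on simulated data.

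Alternatives were median-ratio scaling, a pseudocount of 0.1, testing all genes above 0 or those averaging 5 TPM or more, quantile normalization, a length and GC correction, eBayes without trend, a size threshold of 1 on the log2 scale, only the 4 libraries compared, each library left out, and the replicate block. Crossed blocks and the alternatives for the lists were added after seeing the data. Python 3.11.15 with pandas 2.3.3 and matplotlib 3.10.9 served for the other steps.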

Additional observations from a re-analysis of the deposited data

How the results depend on the processing

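Of 32 calls of single forkhead genes, 10 held under every alternative tried. Over the 620 combinations of a call and an alternative, 487 kept the call, 133 lost it and 0 changed sign. With all genes above 0, 1 forkhead gene differed between W6 and W2 and 3 between W12 and W6. Of all genes, 2.41% and 6.22% did, against 16.3% and 20.2% in the main fit. From W6 to W12, median-ratio scaling left 3 and the length and GC correction 1, beside 16.3% and 13.9% of all genes. The length and GC correction gave 2 at W1 against D0 and 1 at W2 against W1, beside 11.2% and 0.29%. With only the 4 libraries compared, 0 differed at W1 and 2 at W6 against D0, and 0 between W12 and W6. The shares of all genes in those fits were 3.14%, 8.34% and 6.77%. The cause of these differences was not tested. The fit of all genes above 0 held more genes, and only the fits of 4 libraries held fewer samples.

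Leaving out each library in turn gave 0 to 2 forkhead genes at W1, 2 to 4 at W2, 4 to 8 at W6 and 6 to 12 at W12 against D0. It gave 0 between W2 and W1, 1 to 4 between W6 and W2, 1 to 6 between W12 and W6, and 8 to 12 in the F test. Where a timepoint was left with 1 library, that library was assumed to vary like the others.

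Deviations of libraries with the same replicate number correlated at −0.129 to 0.182, so the numbers were not taken to pair mice. With the replicate block, 1, 3, 6 and 11 forkhead genes differed from D0 at W1, W2, W6 and W12. Of all genes, 8.06%, 13%, 28.7% and 40.1% did. From W1 to W2, W2 to W6 and W6 to W12, 0, 2 and 3 differed, beside 0.0458%, 10.6% and 16.5% of all genes. The calls not kept were those of *Foxj2* and *Foxk1* at W6 and *Foxq1* at W12 against D0, *Foxk1* from W2 to W6, and *Foxp4* and *Foxq1* from W6 to W12, at adjusted *P* of 0.052 to 0.072 with the block. With crossed numbers, 1 differed at W1 and 8 at W6 against D0 and 4 between W12 and W6. Of all genes, 9.34%, 32.7% and 20.3% did.

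Among all tested genes called, the share that was higher moved under median-ratio scaling from 58.6% to 47.4% at W1 against D0 and from 33.0% to 55.0% between W12 and W6. Read depth is not recorded in TPM, so the counting error of the low members is unknown.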
